A study of Mus musculus with 31 samples.

Results

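NRF2, encoded by Nfe2l2, is the transcription factor that switches on antioxidant and detoxifying genes. The 9 genes described here are Nfe2l2 and 8 genes commonly listed as its targets: Nqo1, Srxn1, Txnrd1, Hmox1, Gclc, Gclm, G6pdx and Osgin1. They were taken by their symbols from a count table of 55487 genes, and all 9 were among the 19268 genes that passed a filter on low counts. The table covers kidneys of 31 male mice of the B6 background in 4 groups. These were 8 Nbl1 HET mice given cisplatin, 7 Nbl1 HET mice given PBS, 8 WT mice given cisplatin and 8 WT mice given PBS. Treatment began at 8 weeks of age and ran for 4 weeks, kidneys were taken 3 days after it, and the labels put collection at 11 weeks, which does not add up with the other numbers. Cisplatin is a platinum drug that damages the kidney tubule, PBS is the salt buffer given in its place, and Nbl1 encodes a secreted inhibitor of bone morphogenetic proteins. Neither the dose of cisplatin nor how the Nbl1 allele was made was stated in the labels. Each library carries its own mouse number and was counted as 1 animal.

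In unstressed cells the adaptor KEAP1 holds NRF2 and hands it to a ubiquitin ligase that marks it for destruction, so the protein stays scarce even where its mRNA is present. Oxidants and electrophiles disable KEAP1, and NRF2 then collects in the nucleus, pairs with small MAF proteins and binds antioxidant response elements (AREs) in front of its targets. In the kidney this program is known for limiting oxidative damage to tubule cells, which take cisplatin up. The 8 targets cover quinone reduction (Nqo1), repair of oxidized peroxiredoxins (Srxn1), the thioredoxin system (Txnrd1), NADPH supply (G6pdx), glutathione synthesis (Gclc, Gclm), heme breakdown (Hmox1) and growth control (Osgin1). Only mRNA was measured, so no value below speaks of NRF2 protein.

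Promoter sequences are shown for the 4 target genes in which an ARE core was found. Nfe2l2, the regulator, held one too and is not shown. After cisplatin 3 of the 4 rose and Gclm fell in each genotype, by the fit described below. Of all tested genes 31% rose and 28% fell in HET, and 33.6% rose and 29.6% fell in WT. Nqo1, in which no core was found, rose as well. Whether a core bears on the change was not tested. RefSeq promoter windows (build GRCm38.p6, from 250 bases before to 50 bases after the annotated start) were found for 7 of the 9 genes, and there was no entry for Hmox1 or Gclc. Capitals mark an ARE core (TGACNNNGC on either strand) or an AP-1 core (TGANTCA on either strand). The AP-1 core is the site of the JUN and FOS factors. Only these letters were searched, so AREs with another letter at a fixed position were not counted. Each line is written 5′ to 3′ on the gene's strand, Srxn1 from chr2:152105274-152105573 (plus strand), Txnrd1 from chr10:82858956-82859255 (plus strand), G6pdx from chrX:74428831-74429130 (minus strand) and Gclm from chr3:122245307-122245606 (plus strand).
Srxn1: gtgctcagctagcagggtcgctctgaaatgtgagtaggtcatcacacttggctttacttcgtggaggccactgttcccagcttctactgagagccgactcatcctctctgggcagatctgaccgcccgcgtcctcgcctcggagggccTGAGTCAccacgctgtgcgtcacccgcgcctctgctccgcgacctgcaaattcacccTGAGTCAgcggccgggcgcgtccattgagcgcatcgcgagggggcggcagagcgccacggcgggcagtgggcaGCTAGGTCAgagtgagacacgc
Txnrd1: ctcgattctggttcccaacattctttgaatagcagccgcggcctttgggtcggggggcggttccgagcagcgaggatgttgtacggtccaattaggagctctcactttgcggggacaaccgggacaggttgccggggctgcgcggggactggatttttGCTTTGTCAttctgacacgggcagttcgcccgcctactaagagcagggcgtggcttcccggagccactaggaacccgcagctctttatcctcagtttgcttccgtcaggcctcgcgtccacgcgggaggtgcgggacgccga
G6pdx: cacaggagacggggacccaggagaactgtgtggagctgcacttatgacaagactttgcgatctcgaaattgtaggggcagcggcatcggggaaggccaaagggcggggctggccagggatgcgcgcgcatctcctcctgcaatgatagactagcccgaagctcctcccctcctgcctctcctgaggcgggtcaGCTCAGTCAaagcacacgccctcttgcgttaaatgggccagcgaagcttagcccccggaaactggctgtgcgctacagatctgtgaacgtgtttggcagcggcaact
Gclm: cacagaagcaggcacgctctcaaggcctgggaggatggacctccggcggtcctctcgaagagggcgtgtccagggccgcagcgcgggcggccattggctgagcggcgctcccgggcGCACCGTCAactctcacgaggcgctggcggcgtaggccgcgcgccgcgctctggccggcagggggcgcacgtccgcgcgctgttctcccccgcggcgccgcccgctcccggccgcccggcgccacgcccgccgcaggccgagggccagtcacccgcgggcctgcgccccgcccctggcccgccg

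The 7 genes have 9 windows, since Txnrd1 has 3, and the ARE core occurred in 5 of the 9 windows, 1 each of Nfe2l2, Srxn1, Txnrd1, G6pdx and Gclm. It occurred in 12.4% of 32851 promoters of the same length in the RefSeq table outside chromosome 18. Positions are counted in bases from the annotated start, with negative numbers before it. Srxn1 had the site GCTAGGTCA at 28 to 36, just after the start, and AP-1 cores TGAGTCA at −102 to −96 and at −45 to −39. Txnrd1 had GCTTTGTCA at −92 to −84 in the window shown. G6pdx had GCTCAGTCA at −57 to −49, Gclm had GCACCGTCA at −134 to −126, and Nfe2l2 had TGACTCCGC at −240 to −232. Osgin1 had no ARE core of the form searched and 1 AP-1 core, TGACTCA at −97 to −91. Whether this AP-1 core or those of Srxn1 lie within a variant ARE was not tested. An AP-1 core occurred in 2 of the 9 windows and in 7.81% of the 32851 promoters. Neither motif, in the form searched, was found in the window of Nqo1. A match describes the letters and is not a measured binding site.

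Some libraries stand apart, and they are named here before any value. Total counts, in units of 1000000, spanned 26.87 to 31.92 over the HET cisplatin libraries and 29.23 to 36.7 over the HET PBS libraries. WT libraries spanned 24.65 to 28.86 with cisplatin and 29.85 to 37.3 with PBS. Nbl1 itself averaged 7.34 ± 4.7 CPM (SD, n = 8) in HET cisplatin and 20.6 ± 4.8 CPM (SD, n = 8) in WT cisplatin, where CPM is counts per 1000000 scaled by the TMM method. It averaged 2.72 ± 1.7 CPM (SD, n = 7) in HET PBS and 6.37 ± 1.3 CPM (SD, n = 8) in WT PBS. A set of 5 libraries lay below all others of their group in Nbl1 and are doubted in their genotype label: HET cisplatin 3 and 4, HET PBS 1 and 6, and WT PBS 6. WT cisplatin 6 (10.7 CPM) also lay below all others of its group, the next being WT cisplatin 3 (18.1 CPM). It lay within the HET cisplatin range, which reached 13.9 CPM. It was not put in the set and stayed in when the 5 were left out. The libraries WT cisplatin 6 and HET cisplatin 6 lay nearest to the PBS libraries on the first principal component. Mice numbered in the 600s make up 8 of 8 HET cisplatin, 4 of 7 HET PBS, 6 of 8 WT cisplatin and 4 of 8 WT PBS mice, so number range and group partly coincide. The labels do not say whether that number marks a litter, a cohort or a date.

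The first question is what cisplatin did to the 9 genes in each genotype. In HET kidneys 6 of the 9 rose, 1 fell and 2 did not pass the test, against a background of 31% of all tested genes higher and 28% lower (59% in either direction). In WT kidneys the same 6 rose, Gclm again fell and the same 2 did not pass, against 33.6% higher and 29.6% lower (63.2% in either direction). The test was the quasi-likelihood F test of edgeR, adjusted by Benjamini-Hochberg over the 19268 genes with a threshold of 0.05. The median log2 fold change of the 9 genes was 0.91 in HET and 0.92 in WT, while the median of all tested genes was 0.06 in each. The 9 genes were chosen with earlier results of these data known, which limits their comparison with all genes. Without the 5 doubted libraries the counts stayed at 6 higher and 1 lower in each genotype, and the same counts held in WT without WT cisplatin 6 and HET cisplatin 6. In HET that last step left 6 higher and made 3 lower, with Hmox1 and Osgin1 added.

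**Figure D1:**
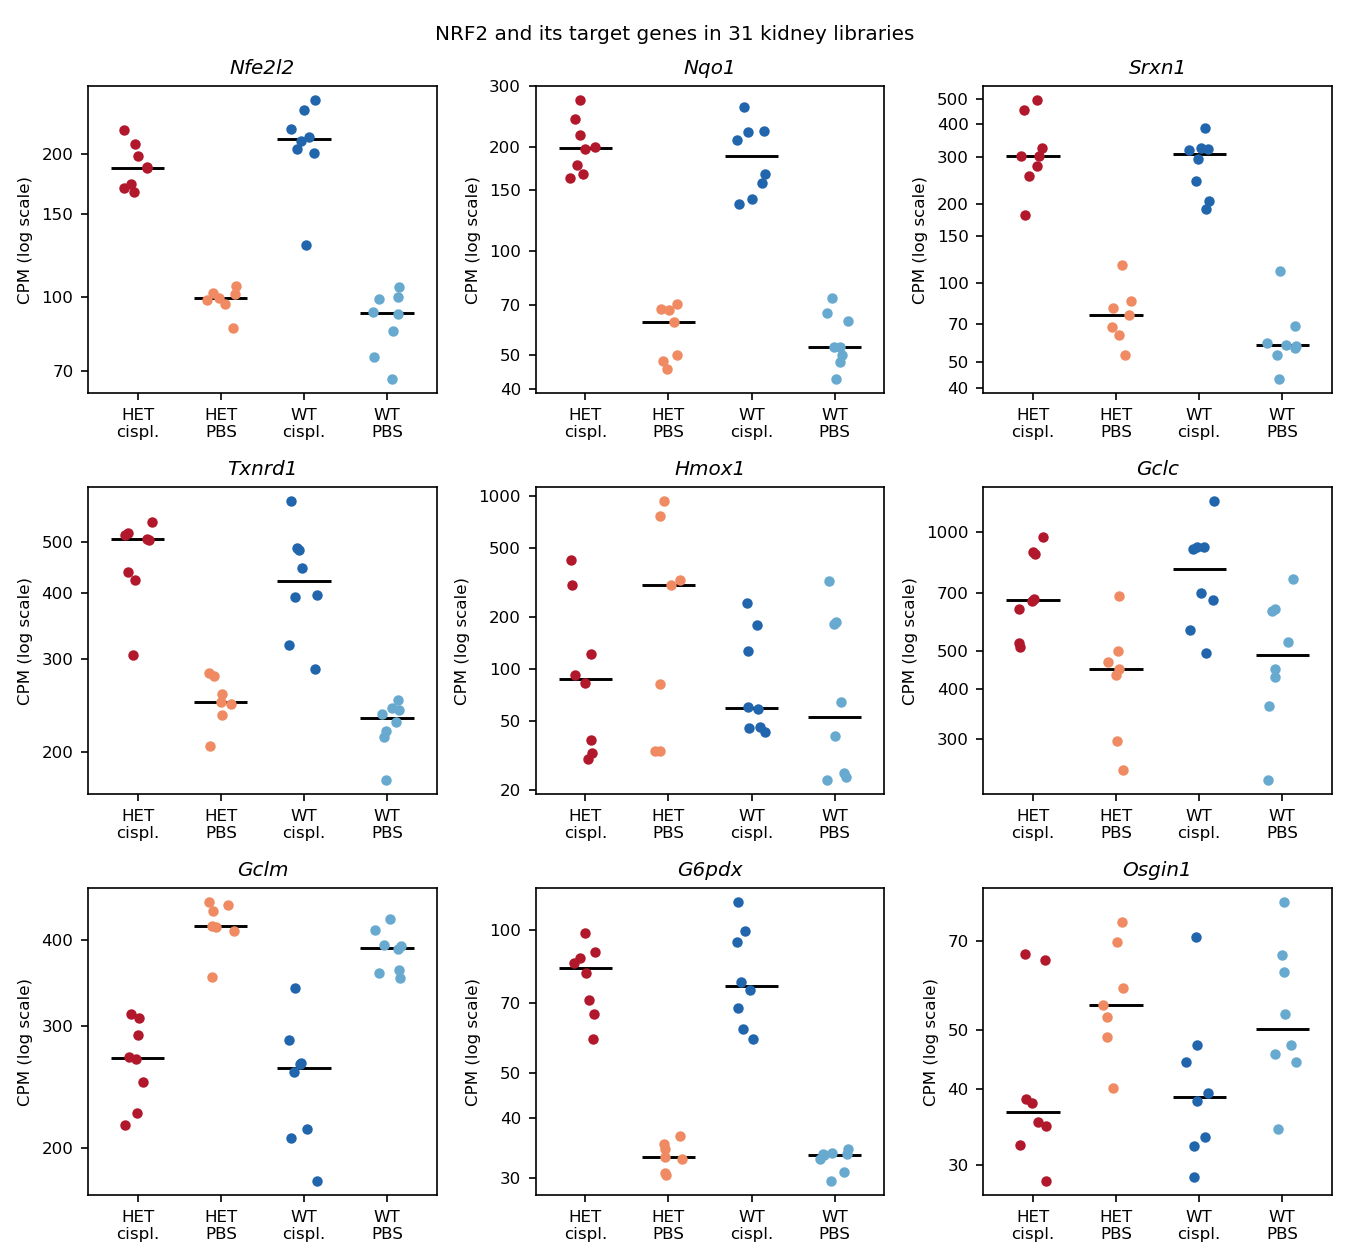
Level of each of the 9 genes in every library, in CPM on a log axis, with groups in the order HET cisplatin, HET PBS, WT cisplatin and WT PBS. Each point is 1 mouse and each black line the group median. The cisplatin and PBS points do not overlap in either genotype for Nfe2l2, Nqo1, Srxn1, Txnrd1, G6pdx (cisplatin higher) and Gclm (cisplatin lower), and they overlap for Hmox1, Gclc and Osgin1. The share of all tested genes without overlap was not counted.

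The regulator comes first. Nfe2l2 (ENSMUSG00000015839, protein-coding, chr2:75675513-75704641, minus strand, GRCm38) had 167 CPM at its lowest, 188 at its median and 226 at its highest in HET cisplatin, against 86.4, 99.7 and 106 CPM in HET PBS. In WT cisplatin it had 129, 216 and 261 CPM, against 67.3, 92.8 and 105 CPM in WT PBS. Every cisplatin kidney lay above every PBS kidney of its genotype. How many of all tested genes separate in this way was not counted. Whether separation, here and for the genes below, is particular to them is therefore not known. The log2 fold change was 0.94 (SE 0.11, adjusted p = 4.35e-09) in HET and 1.25 (SE 0.10, adjusted p = 4.45e-12) in WT. The mRNA of the regulator was itself higher after cisplatin in both genotypes.

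Nqo1, Srxn1 and Txnrd1 act on quinones and on the thioredoxin and peroxiredoxin system, and all 3 rose. Nqo1 (ENSMUSG00000003849, chr8:107388225-107403206, minus strand), the quinone reductase often read as a gauge of NRF2 activity, ran from 162 to 274 CPM around a median of 199 in HET cisplatin, against 45.7 to 70.2 CPM around 62.5 in HET PBS. It ran from 137 to 261 CPM around 188 in WT cisplatin, against 42.6 to 73 CPM around 52.8 in WT PBS. The cisplatin and PBS ranges did not overlap in either genotype, and the log2 fold change was 1.80 (SE 0.15, adjusted p = 6.68e-12) in HET and 1.76 (SE 0.14, adjusted p = 2.61e-12) in WT. Srxn1 (ENSMUSG00000032802, chr2:152105516-152111376, plus strand), the sulfiredoxin whose promoter opens the set above, changed the most of the 9. It had 181, 303 and 495 CPM (lowest, median, highest) in HET cisplatin and 53.3, 75.4 and 117 CPM in HET PBS. In WT cisplatin it had 191, 308 and 389 CPM, and in WT PBS 43.1, 58 and 111 CPM. Again no cisplatin kidney fell among the PBS kidneys, and the rise was 2.06 (SE 0.21, adjusted p = 5.12e-10) in HET and 2.18 (SE 0.20, adjusted p = 4.78e-11) in WT on the log2 scale. Txnrd1 (ENSMUSG00000020250, chr10:82833951-82897712, plus strand), the cytosolic thioredoxin reductase, ran from 305 to 546 CPM around 506 in HET cisplatin, against 205 to 282 CPM around 249 in HET PBS. In WT cisplatin it ran from 287 to 598 CPM around 421, against 177 to 251 CPM around 232 in WT PBS. Its rise was smaller, 0.91 (SE 0.12, adjusted p = 1.77e-07) in HET and 0.92 (SE 0.12, adjusted p = 5.55e-08) in WT, with no overlap between treatments. Eid3, a gene that shares 1305 bases with Txnrd1 on the same strand, averaged 7.87 CPM in HET cisplatin and 8.9 CPM in WT cisplatin, far below Txnrd1.

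G6pdx (ENSMUSG00000031400, chrX:74409483-74429194, minus strand) encodes glucose-6-phosphate dehydrogenase, the entry enzyme of the pentose phosphate pathway and a source of NADPH. Its level was 58.8 to 98.6 CPM around 83.1 in HET cisplatin, against 30.3 to 36.8 CPM around 33.2 in HET PBS. It was 58.8 to 115 CPM around 76.2 in WT cisplatin, against 29.5 to 34.5 CPM around 33.6 in WT PBS. PBS kidneys were uniform, with a coefficient of variation (SD over mean) of 7.16% in HET PBS and 5.28% in WT PBS, and cisplatin kidneys spread more, at 16.6% in HET and 24.2% in WT. The rise was 1.26 (SE 0.11, adjusted p = 6.69e-11) in HET and 1.31 (SE 0.11, adjusted p = 8.21e-12) in WT. The whole gene lies inside Ikbkg on the opposite strand, and no label states whether counting used the strand, so reads of the pair may not be separable. Ikbkg rose less, by 0.33 (SE 0.065) in HET and 0.35 (SE 0.063) in WT. The near-copy G6pd2 held 1 count in all of HET cisplatin and 1 in all of WT cisplatin.

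Gclc and Gclm encode the catalytic and the modifier subunit of glutamate-cysteine ligase, the enzyme that limits glutathione synthesis, and they went opposite ways. Gclc (ENSMUSG00000032350, chr9:77754535-77794485, plus strand) had 511, 674 and 973 CPM (lowest, median, highest) in HET cisplatin, against 250, 450 and 689 CPM in HET PBS. It had 494, 805 and 1201 CPM in WT cisplatin, against 236, 490 and 762 CPM in WT PBS. The ranges overlapped, and the log2 fold change was 0.71 (SE 0.22, adjusted p = 0.00646) in HET and 0.66 (SE 0.21, adjusted p = 0.00744) in WT. Among mice numbered in the 600s alone it was 0.46 in HET (adjusted p = 0.0880) and 0.42 in WT (adjusted p = 0.138), so the call was lost there. The PBS kidneys differed by number range as well, with 436 to 689 CPM inside and 250 to 450 CPM outside it in HET, and 451 to 762 CPM inside and 236 to 641 CPM outside it in WT.

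Gclm (ENSMUSG00000028124, chr3:122245557-122270732, plus strand) had 216, 270 and 312 CPM (lowest, median, highest) in HET cisplatin, against 354, 419 and 454 CPM in HET PBS. In WT cisplatin it had 179, 261 and 342 CPM, against 353, 390 and 430 CPM in WT PBS. All cisplatin kidneys lay below all PBS kidneys of their genotype, and Gclm fell by 0.65 (SE 0.099, adjusted p = 1.18e-06) in HET and by 0.62 (SE 0.096, adjusted p = 1.50e-06) in WT, though on the deposited TPM scale the sign flipped to 0.05 (adjusted p = 0.559) in HET and 0.08 (adjusted p = 0.351) in WT. TPM (transcripts per 1000000) is a level per gene length that sums to the same total in every library. With library totals as the only scaling Gclm stayed lower, at −0.25 (adjusted p = 0.0135) in HET and −0.23 (adjusted p = 0.0216) in WT. The median of all tested genes moved with the scaling and stood at 0.36 in HET and 0.35 in WT on the log2(TPM + 1) scale and at 0.46 in each with library totals, and Gclm was below the median gene under all 3 scalings. Its counts were not whole numbers in 30 of 31 libraries, and it overlaps the pseudogene Gm6061, which averaged 1.81 CPM in HET cisplatin and 2.03 CPM in WT cisplatin, and Gm17494 on the opposite strand at 3.4 and 3.29 CPM. Since both subunits are read in the same library, the library total cancels in their ratio. The step from counts to TPM does not cancel, as it was not the same for both genes in every library. In HET PBS 1, Gclm had 11612.82 counts and 143.44 TPM, and Gclc 12691 counts and 90.69 TPM. In HET cisplatin 8, Gclm had 7215.73 counts and 145.15 TPM, and Gclc 28684 counts and 242.38 TPM. The ratio of Gclc to Gclm in TPM ran from 0.849 to 1.67 around a median of 1.33 in HET cisplatin, against 0.406 to 0.948 around 0.614 in HET PBS. It ran from 0.99 to 1.99 around 1.71 in WT cisplatin, against 0.369 to 1.25 around 0.732 in WT PBS. The ratio was looked at after the values of both genes were known and was not tested.

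**Figure D2:**
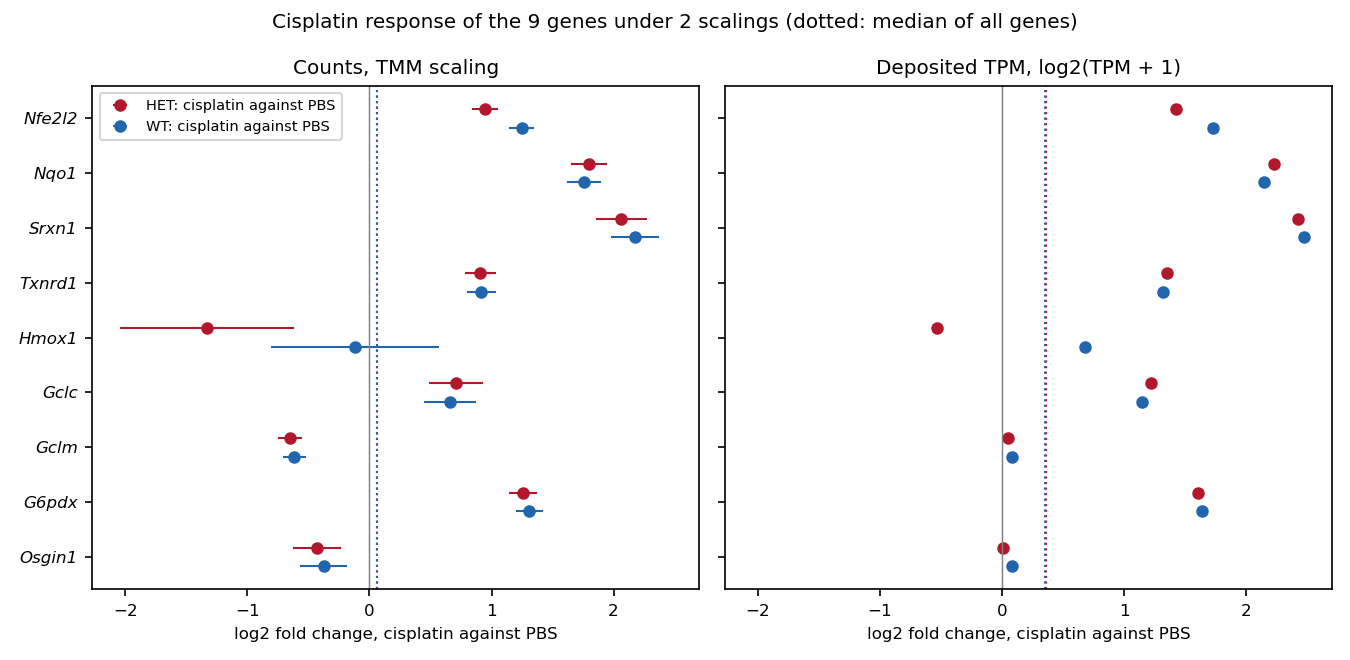
Log2 fold change of each gene, cisplatin against PBS, in HET (red, upper of each pair) and WT (blue), from counts with TMM scaling on the left (points with SE) and from the deposited TPM on the right (points only). Dotted lines mark the median of all tested genes. Nfe2l2, Nqo1, Srxn1, Txnrd1, Gclc and G6pdx lie right of both lines in both panels, and Gclm and Osgin1 move from below 0 on the left to just above 0 on the right.

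Hmox1 and Osgin1 did not pass the test in either genotype. Osgin1 (ENSMUSG00000074063, chr8:119434124-119446256, plus strand), an oxidative stress induced growth inhibitor, had 28.3 to 66.6 CPM around 36.7 in HET cisplatin, against 40.2 to 75.3 CPM around 55.1 in HET PBS. It had 28.7 to 71.3 CPM around 38.9 in WT cisplatin, against 34.4 to 81.2 CPM around 50.2 in WT PBS. The log2 fold change was −0.43 (SE 0.20, adjusted p = 0.0608) in HET and −0.38 (SE 0.19, adjusted p = 0.0870) in WT, and on the log2(TPM + 1) scale it was 0.01 in HET and 0.08 in WT. Osgin1 passed the test in WT without WT cisplatin 3 (−0.53, adjusted p = 0.0127) or without WT PBS 1 (−0.45, adjusted p = 0.0420). It passed in HET without HET cisplatin 6 (−0.55, adjusted p = 0.0141), HET cisplatin 7 (−0.55, adjusted p = 0.0178), HET PBS 4 (−0.50, adjusted p = 0.0350) or WT cisplatin 3 (−0.43, adjusted p = 0.0407).

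Hmox1 (ENSMUSG00000005413, chr8:75093621-75100589, plus strand), the inducible heme oxygenase that breaks heme into biliverdin, iron and carbon monoxide, varied more than any other of the 9 genes. Its level was 30.3 to 427 CPM around 87.8 in HET cisplatin, against 33.4 to 942 CPM around 306 in HET PBS. It was 43.2 to 242 CPM around 59.7 in WT cisplatin, against 22.8 to 324 CPM around 52.9 in WT PBS. Its coefficient of variation within a group was 75% to 103.2%, where for the other 8 genes it was 5.28% to 35.05%. The log2 fold change was −1.33 (SE 0.71, adjusted p = 0.108) in HET and −0.12 (SE 0.69, adjusted p = 0.892) in WT, and the WT value changed sign under library totals (0.27), on the log2(TPM + 1) scale (0.68), with voom (0.27), without the 5 doubted libraries (0.04) and without WT PBS 6 (0.04), WT PBS 7 (0.36) or WT PBS 8 (0.03). In HET it passed the test without HET cisplatin 6 (−1.82, adjusted p = 0.0308).

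The mouse number moved with Hmox1 in the controls. HET PBS mice numbered in the 600s (n = 4) had 306 to 942 CPM, and the other HET PBS mice (n = 3) had 33.4 to 81.5 CPM. WT PBS mice in the range (n = 4) had 64.7 to 324 CPM, and those outside it (n = 4) had 22.8 to 41.1 CPM. Within each genotype the 2 sets of PBS mice did not overlap. Within the range, cisplatin against PBS gave −2.05 (adjusted p = 0.00939) in HET and −0.71 (adjusted p = 0.406) in WT, and with the range as a covariate it gave −1.68 (adjusted p = 0.0102) in HET and −0.12 (adjusted p = 0.855) in WT. Outside the range there was no HET cisplatin mouse, so no such value can be had for HET. Macrophages express Hmox1 and red cells carry heme, so markers of both are given beside it. All 10 macrophage markers were found, and their summed level was 42.6 to 187 CPM in HET cisplatin, 93 to 113 CPM in HET PBS, 114 to 223 CPM in WT cisplatin and 88 to 105 CPM in WT PBS. The 6 erythrocyte markers summed to 2.24 to 80.6 CPM in HET cisplatin, 361 to 796 CPM in HET PBS, 3.02 to 44.3 CPM in WT cisplatin and 334 to 1870 CPM in WT PBS. They were Hba-a1, Hba-a2, Hbb-bs, Hbb-bt, Alas2 and Slc4a1, and Slc4a1 was also listed as a collecting duct marker. In both cisplatin groups each of the globin genes (Hba and Hbb) had no counts in some libraries. The part of either cell type in the Hmox1 values was not tested. Of the cisplatin mice, HET cisplatin 6 had the highest Hmox1 (427 CPM), the highest erythrocyte sum (80.6 CPM) and the lowest macrophage sum (42.6 CPM). It also lay nearest to the PBS libraries on the first principal component. The next highest in Hmox1 did not share these extremes. HET cisplatin 7 (306 CPM) had an erythrocyte sum of 19.7 CPM and a macrophage sum of 146 CPM. WT cisplatin 8 (242 CPM) had 7.5 and 145 CPM. Of the PBS mice, HET PBS 7 had the highest Hmox1 (942 CPM), with an erythrocyte sum of 567 CPM and a macrophage sum of 105 CPM.

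**Figure D3:**
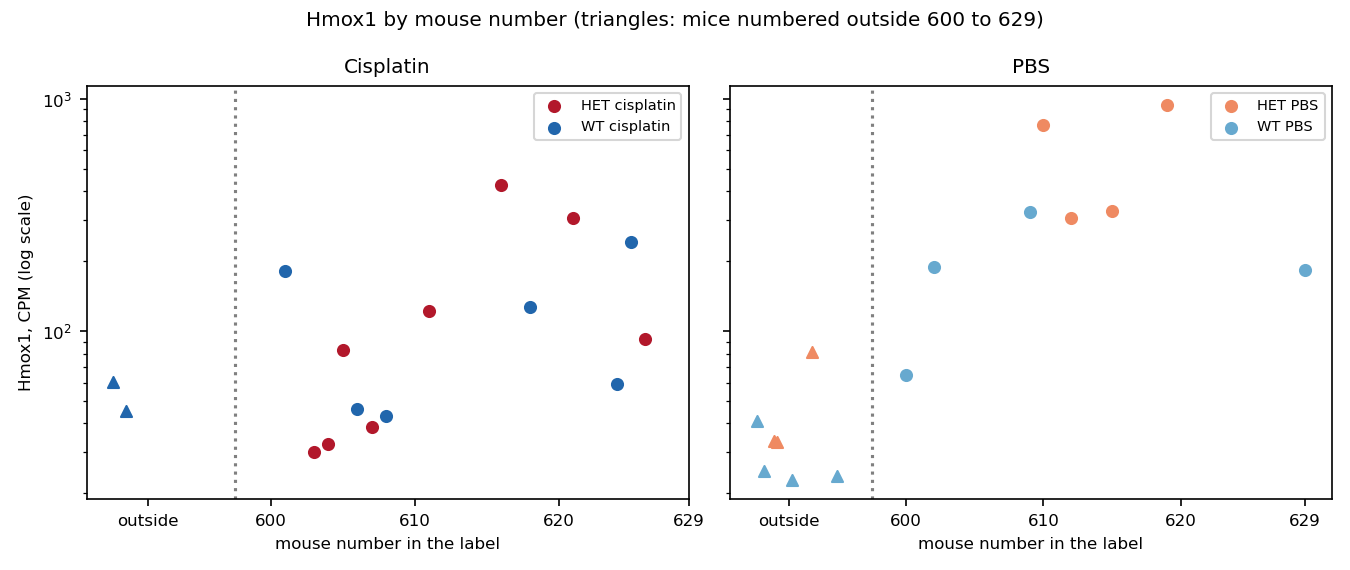
Hmox1 level (CPM, log axis) against the mouse number in the label, in cisplatin mice (left) and PBS mice (right). Circles are mice numbered in the 600s and triangles are mice outside that range, drawn in a strip with no order. In the PBS panel the triangles lie at 22.8 to 81.5 CPM and the circles at 64.7 to 942 CPM.

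The second question is whether the 9 genes differed between HET and WT mice. None of the 9 passed the test under cisplatin, where 0.00519% of all tested genes (1 gene) did, and none passed under PBS, where 0% did. At an unadjusted p under 0.05, 1066 of the 19268 genes differed under cisplatin and 968 under PBS, and of the 9 only Hmox1 under PBS was among them. DESeq2 and voom likewise called none of the 9 in either comparison. Under cisplatin the log2 differences, HET against WT, ran from −0.16 for Nfe2l2 (95% interval −0.37 to 0.04) to 0.49 for Hmox1 (−0.91 to 1.90). The interval was narrowest for Gclm (−0.11 to 0.28) and Nfe2l2, and for Nqo1 it was −0.17 to 0.39. Under PBS they ran from −0.19 for Gclc (−0.64 to 0.25) to 1.71 for Hmox1 (0.24 to 3.18, SE 0.72, adjusted p = 0.877), and the Hmox1 difference was 1.63 (adjusted p = 0.998) among mice numbered in the 600s.

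The interaction asks whether cisplatin moved a gene by a different amount in HET than in WT. It passed the test for none of the 9, where 0% of all tested genes passed, and 1079 genes, Nfe2l2 among them, had an unadjusted p under 0.05. DESeq2 and voom gave none of the 9 either. Nfe2l2 came closest, at −0.30 (95% interval −0.60 to −0.01, SE 0.14, adjusted p = 0.884), with a value of −0.20 among mice numbered in the 600s. For Hmox1 it was −1.22 (−3.24 to 0.81, SE 0.99, adjusted p = 0.940), and for the other 7 genes the estimates lay between −0.11 and 0.05. The intervals of Nqo1 (−0.36 to 0.44), Txnrd1 (−0.36 to 0.34) and G6pdx (−0.37 to 0.27) bound the size of a difference that these mice could have hidden.

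Levels per gene length put the 9 genes in a different order under each treatment. In HET cisplatin the mean TPM was highest for Gclc (192 ± 46, SD, n = 8), followed by Gclm (143 ± 15), Txnrd1 (140 ± 25), Nqo1 (127 ± 22), Srxn1 (107 ± 35), Hmox1 (83.4 ± 81), Nfe2l2 (76.6 ± 9.7), G6pdx (28.9 ± 5.2) and Osgin1 (19.4 ± 5.5). In that order the ranges of neighbours overlapped except between Nfe2l2 and G6pdx. In HET PBS it was Hmox1 (159 ± 168, SD, n = 7), Gclm (137 ± 14), Gclc (82.8 ± 24), Txnrd1 (53.3 ± 5.3), Nfe2l2 (27.7 ± 2.4), Nqo1 (26.5 ± 5.4), Osgin1 (19 ± 3.7), Srxn1 (18.8 ± 5.2) and G6pdx (8.75 ± 1.0). There the neighbours were apart between Gclm and Gclc, between Txnrd1 and Nfe2l2, and between Srxn1 and G6pdx. WT cisplatin began with Gclc (212 ± 61, SD, n = 8), Gclm (136 ± 20), Txnrd1 (126 ± 28) and Nqo1 (118 ± 28), and all of its neighbours overlapped. WT PBS began with Gclm (128 ± 5.8, SD, n = 8), Gclc (96.4 ± 31) and Txnrd1 (49.0 ± 4.2), and only Srxn1 (16.1 ± 4.6) and G6pdx (8.55 ± 0.65) were apart. Nqo1 and Srxn1, low in PBS kidneys, thus stood beside Txnrd1 in cisplatin kidneys.

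Cisplatin kidneys were not equally affected, so the 9 genes were also compared among mice of the same group. The summed level of 11 markers of the proximal tubule (segments S1 and S2) was 1500 to 6930 CPM in HET cisplatin and 16000 to 18800 CPM in HET PBS, and 1550 to 7220 CPM in WT cisplatin and 16300 to 19100 CPM in WT PBS. The sum of 6 injured tubule markers was 2500 to 6330 CPM in HET cisplatin and 452 to 591 CPM in HET PBS, and 4920 to 6240 CPM in WT cisplatin and 383 to 539 CPM in WT PBS. In whole kidney fewer cells of a type and less RNA per cell cannot be told apart. The part of this shift in the 9 genes' changes was not tested.

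None of 18 relations between a gene and the mean log2 CPM of the S1 and S2 markers passed the exact permutation test at an adjusted p of 0.05. With markers of segment S3 in their place, Osgin1 in HET cisplatin passed by rank (rho = 0.952, exact permutation p = 0.00114, adjusted 0.0205) but not by r (0.712, exact permutation p = 0.0381, adjusted 0.452; 0.904 without the 2 mice farthest from the median score). With S1 and S2 the largest were Osgin1 in HET cisplatin (r = 0.759, exact permutation p = 0.0332, adjusted 0.256; rho = 0.905, p = 0.00456, adjusted 0.0821) and Gclc in WT cisplatin (r = −0.764, exact permutation p = 0.0252, adjusted 0.256; rho = −0.762, p = 0.0368, adjusted 0.312). Without the 2 mice farthest from the median score r was 0.518 for Osgin1 and −0.735 for Gclc. Among the 6 WT cisplatin mice numbered in the 600s r was −0.804 for Gclc. Nfe2l2 in HET cisplatin had r = −0.717 with all 8 mice and −0.061 without the 2 mice, so that value rested on them. Under library totals its r was −0.866 (exact permutation p = 0.00476, adjusted 0.0857). There it was −0.473 without the 2 mice farthest from the median score.

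Pairs of the 9 genes were also compared among cisplatin mice. By r, 3 of 72 relations passed the exact permutation test after adjustment over the 72 (1 in HET cisplatin and 2 in WT cisplatin). By rank, Nqo1 and Txnrd1 in WT cisplatin passed as well (rho = 0.952, exact permutation p = 0.00114, adjusted 0.0205). By r that pair did not pass (0.878, exact permutation p = 0.00362, adjusted 0.0521). The median r of the 36 pairs was 0.423 in HET cisplatin and 0.317 in WT cisplatin, and it carries no test, since libraries of a group share depth and scaling. Srxn1 and Gclc had r = 0.913 in HET cisplatin (n = 8, exact permutation p = 0.00062, adjusted 0.0149; rho = 1.0, p = 4.96e-05, the smallest that the test can give, adjusted 0.00357), and 0.843 without the 2 mice farthest from the median of Srxn1. In WT cisplatin the same pair had r = 0.693 (exact permutation, adjusted p = 0.237), and 0.782 among the 6 mice numbered in the 600s. The pair of Srxn1 and Txnrd1 had r = 0.972 in WT cisplatin (n = 8, exact permutation p = 4.96e-05, adjusted 0.00357; rho = 0.976, p = 0.000397, adjusted 0.0143). It was 0.908 without the 2 mice farthest from the median and 0.953 among the 6 mice numbered in the 600s, and 0.745 (exact permutation, adjusted p = 0.237) in HET cisplatin. Gclc and G6pdx had r = 0.943 in WT cisplatin (n = 8, exact permutation p = 0.000372, adjusted 0.0134; rho = 0.952, p = 0.00114, adjusted 0.0205). That r was 0.871 without the 2 mice farthest from the median of Gclc, 0.954 among the 6 mice numbered in the 600s, and 0.815 (exact permutation, adjusted p = 0.179) in HET cisplatin. None of the pairs passed in both groups, and the difference between groups was not tested. All mice of HET cisplatin are numbered in the 600s.

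**Figure D4:**
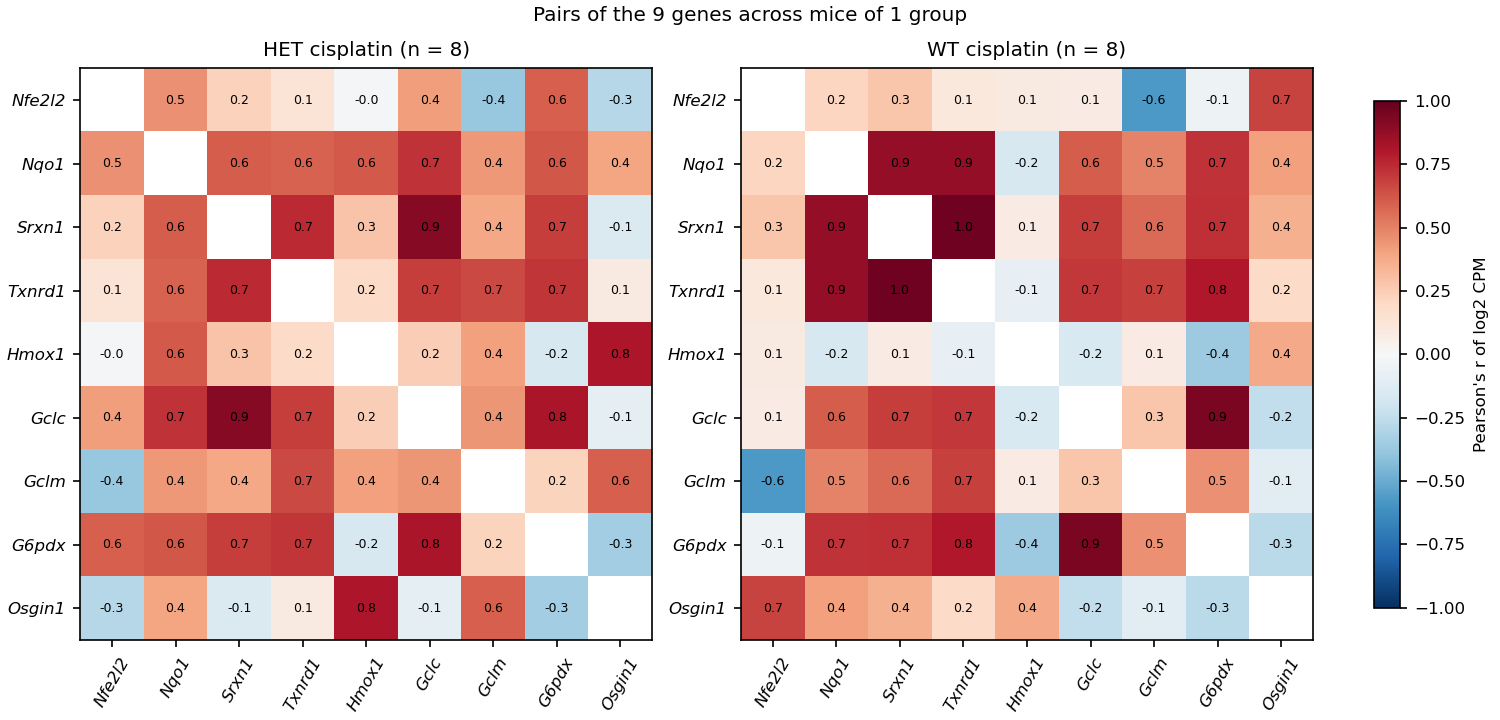
Pearson's r of log2 CPM for each pair of the 9 genes across the 8 mice of HET cisplatin (left) and of WT cisplatin (right), on a colour scale from −1 to 1. Nqo1, Srxn1, Txnrd1, Gclc and G6pdx form a block of positive values in both panels, while Nfe2l2, Hmox1 and Osgin1 have values near or below 0 with several others.

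Taking out the 4 group means and correlating what remained over all 31 libraries gave, as a description, the genes most like each of the 9. For G6pdx the closest was Pgd (r = 0.876), the next NADPH-producing enzyme of its own pathway, and for Gclm they were Gstp1 (0.845), a glutathione transferase, Tkt (0.817), transketolase, and Prdx1 (0.779), a peroxiredoxin. For Txnrd1 they were Prdx6 (0.837), another peroxiredoxin, Slc48a1 (0.828), a heme transporter, and Maoa (0.778), monoamine oxidase A. Nqo1 was most like Gsr (0.821), glutathione reductase, Ugdh (0.808) and Htatip2 (0.745). Srxn1 was most like Map2k3 (0.796), Gm45551 (0.793) and Ell (0.788), and Gclc most like Psmd11 (0.778), a proteasome subunit, Fga (0.748) and Cdcp1 (0.731). After Pgd, G6pdx was most like Kansl2 (0.799) and Ampd3 (0.793). The libraries share depth and scaling, so these values carry no test.

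Nfe2l2, Hmox1 and Osgin1 had other company. Nfe2l2 was most like Npepps (0.833), Atp7a (0.779), a copper transporter, and Cxadr (0.767), and its closest among the other 8 was Osgin1 at rank 1734 of 19267 genes (r = 0.404). Osgin1 was most like Tent4b (0.769), Rabep1 (0.768) and Nabp1 (0.766). Hmox1 was most like Gldc (0.825), glycine decarboxylase, Gm15889 (0.817) and 2010003K11Rik (0.8), and its closest among the 9 was Gclc at rank 916. By contrast Txnrd1 was within the first 34 ranks of Nqo1 (rank 6), Srxn1 (rank 7), G6pdx (rank 14) and Gclm (rank 34), and Srxn1 was rank 5 for Gclc and rank 4 for Txnrd1. Gldc split by mouse number as Hmox1 did among PBS mice. It had 221 to 390 CPM in the 8 mice numbered in the 600s and 101 to 237 CPM in the 7 others. These ranges overlapped over both genotypes together but not within either genotype. Gldc was picked for its likeness to Hmox1, so its split is not separate evidence.

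Around the 9 genes, other genes commonly listed as NRF2 targets mostly rose. Of 21 tested, 14 rose, 4 fell and 3 did not pass in HET, where 31% of all tested genes rose and 28% fell. In WT 14 rose, 4 fell and 3 did not pass, where 33.6% of all rose and 29.6% fell. The medians were 0.52 in HET and 0.44 in WT in log2 units. This list and those below were chosen with earlier results of these data known, which limits their comparison with all genes. The lists given here share genes: 3 of these 21 are also in the pentose phosphate list (Pgd, Tkt, Taldo1), 2 in the glutathione list (Gsr, Slc7a11) and 4 in the heme and iron list (Blvrb, Fth1, Ftl1, Slc48a1), so the lists are not separate evidence. Cbr3, a carbonyl reductase, reached 51.5 ± 16 CPM in HET cisplatin (SD, n = 8) against 1.18 ± 0.19 CPM in HET PBS (SD, n = 7), and 41.6 ± 13 CPM in WT cisplatin against 0.972 ± 0.30 CPM in WT PBS (SD, n = 8 each). Ephx1, the microsomal epoxide hydrolase, rose by 3.68 (SE 0.066) in HET and 3.62 (SE 0.062) in WT, and Cbr1, another carbonyl reductase, by 3.33 (SE 0.16) and 3.15 (SE 0.15). Me1, the cytosolic malic enzyme that also makes NADPH, was the largest fall, by 2.17 (SE 0.14) in HET and by 2.33 (SE 0.14) in WT. The other 3 that fell in both genotypes were Ftl1, Prdx1 and Txn1, which were named after their values were seen, and under library totals Txn1 did not pass in either genotype and Ftl1 did not pass in HET. Both under library totals and on the log2(TPM + 1) scale 17 rose and 2 fell in HET, and 17 rose and 3 fell in WT. Under library totals 62.2% of all tested genes were higher and 12.5% lower in HET, and 61.4% higher and 14.9% lower in WT. On the log2(TPM + 1) scale 65.8% were higher and 10.8% lower in HET, and 64.1% higher and 13% lower in WT.

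Most genes of the pentose phosphate pathway beyond G6pdx rose, 3 of the 7 being among the targets just counted. Of the 7, 6 rose and 1 did not pass in HET (31% of all genes rose), and 6 rose and 1 fell in WT (33.6% of all genes rose), with medians of 0.39 and 0.41. Pgd, 6-phosphogluconate dehydrogenase, averaged 213 ± 40 CPM in HET cisplatin (SD, n = 8) against 94.3 ± 12 CPM in HET PBS (SD, n = 7), and 213 ± 49 CPM in WT cisplatin against 87.4 ± 6.2 CPM in WT PBS (SD, n = 8 each). Pgls, the lactonase between the 2 dehydrogenases, rose by 0.48 (SE 0.068) in HET and 0.41 (SE 0.066) in WT. Tkt rose by 0.52 (SE 0.095) and 0.44 (SE 0.091), and H6pd, the form of the endoplasmic reticulum, by 0.19 (SE 0.081) and 0.54 (SE 0.079). The single fall in WT was Rpe, named after its value was seen, at −0.16, and it turned to 0.23 under library totals.

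Glutathione genes beyond Gclc and Gclm mostly fell. Of 10 further genes, 2 rose, 7 fell and 1 did not pass in HET (28% of all genes fell), and 2 rose, 7 fell and 1 did not pass in WT (29.6% of all genes fell), with medians of −0.56 and −0.60. Ggt1, which starts the breakdown of glutathione at the tubule brush border, averaged 184 ± 66 CPM in HET cisplatin (SD, n = 8) against 1016 ± 44 CPM in HET PBS (SD, n = 7), and 152 ± 77 CPM in WT cisplatin against 1021 ± 53 CPM in WT PBS (SD, n = 8 each). Dpep1, a dipeptidase of the same brush border, fell by 1.54 (SE 0.086) in HET and by 1.74 (SE 0.084) in WT. Gss, which completes glutathione, fell by 0.65 (SE 0.083) and by 0.85 (SE 0.081), and Chac2, a glutathione-cleaving enzyme, fell by 0.97 (SE 0.11) and by 1.12 (SE 0.11). These 4 stayed lower and called under library totals and on the log2(TPM + 1) scale. With Gclc and Gclm included, the list's median of −0.56 in HET and −0.49 in WT became −0.01 in HET and 0.07 in WT on the log2(TPM + 1) scale, where 4 rose and 4 fell in HET and 5 rose and 5 fell in WT. Since Ggt1 and Dpep1 are proximal tubule genes, the fall of the tubule markers given above stands beside theirs.

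Of 12 heme and iron genes other than Hmox1, 4 rose, 7 fell and 1 did not pass in HET and in WT alike, with medians of −0.28 and −0.41. The 4 that rose are near the share of all genes that rose (31% in HET and 33.6% in WT), while 28% of all genes fell in HET and 29.6% in WT. Blvrb, a biliverdin reductase, rose by 1.21 (SE 0.15) in HET and 1.22 (SE 0.14) in WT. Slc11a2, the iron transporter DMT1, fell by 0.83 (SE 0.097) and by 1.15 (SE 0.095), and Fech, which inserts iron into heme, fell by 0.52 (SE 0.053) and by 0.52 (SE 0.051), and Fech did not pass under library totals in HET (−0.11, adjusted p = 0.0849) or WT (−0.12, adjusted p = 0.0566). Urod, an earlier step of heme synthesis, was lower by this fit at −0.30 (SE 0.055) and −0.46 (SE 0.054) but stood at 0.10 in HET and −0.06 in WT under library totals. Under library totals the list of 13 with Hmox1 had 6 higher and 1 lower in HET and 5 higher and 3 lower in WT, where 62.2% of all genes were higher in HET and 61.4% in WT.

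Most antioxidant enzymes that were not listed as NRF2 targets fell. Of 19, none rose, 16 fell and 3 did not pass in HET (28% of all genes fell), and the counts were equal in WT (29.6% of all genes fell), with medians of −0.75 and −0.82. Under library totals 3 rose and 13 fell in HET (12.5% of all genes lower) and 3 rose and 12 fell in WT (14.9% of all genes lower). Sod1, the cytosolic superoxide dismutase, averaged 159 ± 32 CPM in HET cisplatin (SD, n = 8) against 396 ± 16 CPM in HET PBS (SD, n = 7), and 144 ± 25 CPM in WT cisplatin against 391.6 ± 17 CPM in WT PBS (SD, n = 8 each). Sod2, the mitochondrial form, fell by 1.21 (SE 0.11) in HET and by 1.31 (SE 0.11) in WT, and the mitochondrial peroxiredoxin Prdx3 fell by 0.78 (SE 0.066) and by 0.86 (SE 0.064). Prdx2 fell by 0.60 (SE 0.051) and by 0.60 (SE 0.050), and in HET it did not pass on the log2(TPM + 1) scale (−0.12, adjusted p = 0.0673). Mitochondrial transcripts made up 3.12 to 5.12% of counts in HET cisplatin and 7.96 to 8.52% in HET PBS, and 2.53 to 4.98% in WT cisplatin and 8.08 to 8.96% in WT PBS, and their part in these falls was not tested.

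Genes that control NRF2 moved by small amounts, with a sign that hung on the scaling. Of 11, 1 rose, 5 fell and 5 did not pass in HET (31% of all genes rose and 28% fell), and 1 rose, 3 fell and 7 did not pass in WT (33.6% rose and 29.6% fell), with medians of −0.14 and −0.04. Under library totals 7 rose and none fell in each genotype, where 62.2% of all genes were higher in HET and 61.4% in WT. The 3 that fell in WT and the 7 higher under library totals are near those shares. Cul3, the scaffold of the ligase that KEAP1 serves, was at 133 ± 6.6 CPM in HET cisplatin (SD, n = 8) against 176 ± 8.6 CPM in HET PBS (SD, n = 7), and at 131 ± 6.1 CPM in WT cisplatin against 178 ± 8.9 CPM in WT PBS (SD, n = 8 each). It fell by 0.40 (SE 0.042) in HET and by 0.44 (SE 0.041) in WT, and under library totals it stood at 0.01 in HET and −0.05 in WT. Keap1, named after its value was seen, was at −0.14 (SE 0.060, adjusted p = 0.0470) in HET and −0.07 (SE 0.058, adjusted p = 0.291) in WT, and turned to 0.26 in HET and 0.32 in WT under library totals. Gsk3b, a kinase that marks NRF2 for another ligase, rose by 0.17 (SE 0.046) in HET and 0.20 (SE 0.0445) in WT. Btrc, the adaptor of that ligase, was at −0.22 (SE 0.059) and −0.36 (SE 0.057), against 0.18 and 0.03 under library totals, and Sqstm1, the p62 protein that removes KEAP1, was at −0.49 (SE 0.115) and −0.32 (SE 0.11), against −0.09 and 0.07 under library totals. None of the genes on the 6 lists passed the test between HET and WT under cisplatin or PBS, or for the interaction.

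**Figure D5:**
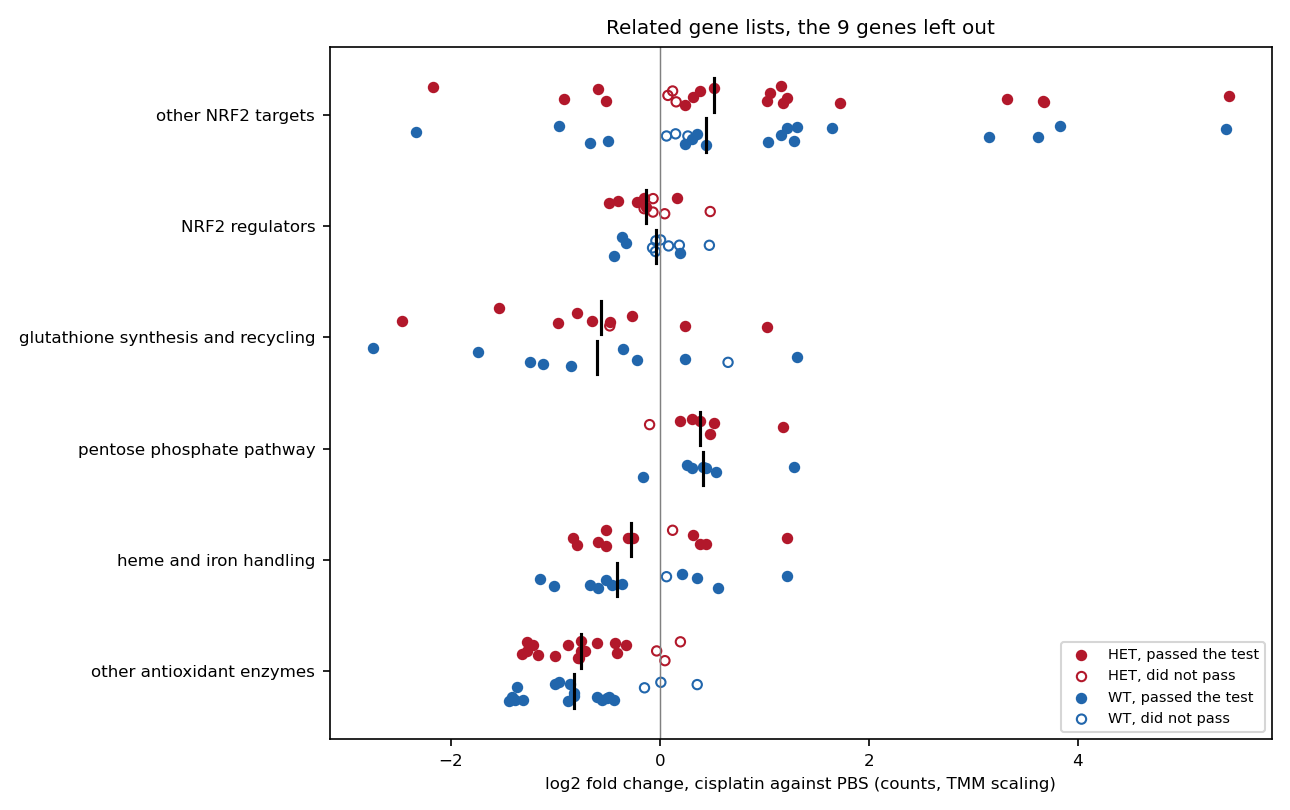
Log2 fold change, cisplatin against PBS, of the genes of 6 related lists with the 9 genes left out, in HET (red, upper of each pair) and WT (blue). Filled points passed the test, open points did not, and black bars are list medians, which are above 0 for other NRF2 targets and the pentose phosphate pathway and below 0 for the other 4 lists.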

How the data were processed

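Kidney RNA of 31 mice was sequenced, 1 library a mouse. The tools that the submitters' processing notes list are fastp, STAR and featureCounts, with the builds GRCm38 and mm10; neither versions nor the strand setting were stated there. The authors deposited gene counts, of which 12.52% of values are not whole, so they were handled as estimated counts and rounded, and TPM values, used for levels and as an alternative. The 31 FPKM columns were not used. Rounded counts were filtered by expression and tested with edgeR 4.0.16 (R 4.3.3, quasi-likelihood F test, TMM, 1 fit of 4 groups, Benjamini-Hochberg over 19268 genes); an SE is the absolute log2 fold change over the square root of F. DESeq2 1.42.0 and limma 3.58.1 served as alternatives. The fit was tested on simulated counts. No pair of libraries agreed within sampling noise, the lowest chi-square per degree of freedom being 9.08. Correlations used exact permutation (40320 orders of 8 mice, two-sided). Total counts of 24.65 to 37.3 (in units of 1000000) set the counting precision.

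The 9 genes and the gene lists were chosen with earlier results of these data known. Beside the 9 genes, the text names the 4 genes of each list with the smallest p in WT, list genes whose call differs in direction between genotypes, and the 3 genes most like each of the 9. Nothing in the labels says whether mice share litters, and p-values measure the spread between these mice.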

Additional observations from a re-analysis of the deposited data

Results flagged for a closer look

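Of 36 sets of values (9 genes in 4 groups), 4 held a library far from the rest of its group, judged by its gap to the nearest other library over the range of the group; chance alone gives about 1 in 20. Nfe2l2 had 129 CPM in WT cisplatin 6, where the next lowest WT cisplatin kidney had 201 CPM. Srxn1 had 111 CPM in WT PBS 5, where the next highest WT PBS kidney had 68.4 CPM. Gclm had 354 CPM in HET PBS 2, where the next lowest HET PBS kidney had 412 CPM. Osgin1 had 71.3 CPM in WT cisplatin 3, where the next highest WT cisplatin kidney had 47.4 CPM.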

How the results depend on the processing

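No paired analysis was possible because each mouse carries its own number and no number is shared between groups. Nfe2l2, Nqo1, Srxn1, Txnrd1 and G6pdx rose in both genotypes under all alternatives run, and Gclc did too except among mice numbered in the 600s, where 5 of the 9 genes rose. Leaving out 1 library kept 6 genes higher in each genotype, 1 to 3 lower in HET (3 without HET cisplatin 6) and 1 to 2 lower in WT. In HET the lower count was 2 with DESeq2, voom, mice numbered in the 600s or the number range as a covariate, 3 without WT cisplatin 6 and HET cisplatin 6 (chosen after seeing the data) and 0 on both TPM scales, and in WT it was 0 on both TPM scales. The cause was not tested.

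Gclm turned to 0.053 in HET with both pseudocounts on TPM (1 and 0.1), and to 0.080 and 0.081 in WT. Osgin1 turned to 0.007 in HET with both, to 0.081 and 0.085 in WT, and to 0.011 in WT under library totals. Hmox1 in WT ran from −0.44 to 0.36 when 1 library was left out, and turned to 0.27 with voom, 0.27 under library totals, 0.68 and 0.71 on the TPM scales and 0.04 without the 5 doubted libraries. The Hmox1 difference of HET and WT under cisplatin turned to −0.17 with the number range as a covariate.

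Adjusted p over the alternatives other than leaving out 1 library ran, in HET and in WT, from 8.68e-06 to 0.0880 and from 1.20e-05 to 0.138 for Gclc, from 5.04e-10 to 0.560 and from 7.55e-10 to 0.351 for Gclm, from 0.00939 to 0.514 and from 0.361 to 0.967 for Hmox1, and from 0.0119 to 0.975 and from 0.0627 to 0.957 for Osgin1. It ran from 0.633 to 1 for Hmox1 between HET and WT under PBS and from 0.227 to 1 for the Nfe2l2 interaction.

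Over all genes, cisplatin against PBS in HET gave 11992, 11226 and 11195 genes higher and 2400, 1844 and 1848 lower under library totals and TPM with pseudocounts of 1 and 0.1. In WT it gave 11831, 10940 and 10917 higher and 2862, 2225 and 2229 lower. Library totals put 83.3% of called genes higher in HET and 80.5% in WT, against 52.6% and 53.1% with TMM. HET against WT under PBS gave 3 higher and 2 lower genes with DESeq2, 2 higher without the 5 libraries, 1 lower on TPM with a pseudocount of 0.1, and 0 to 2 higher with 1 library left out (2 without WT PBS 8). Under cisplatin it gave 0 higher on both TPM scales and 1 lower with voom and without the 5 libraries. Pairs of the 9 genes that passed by r numbered 4 in WT cisplatin without the 2 libraries and 0 in HET cisplatin under library totals. The interaction fitted on the compared groups alone was not run. With the S3 in place of the S1 and S2 marker score, 1 of 18 rank correlations (Osgin1 in HET cisplatin, adjusted p = 0.0205, exact permutation) passed.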
